A study of Mus musculus with 17 samples.

Results

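GPI-negative bone marrow cells from mice that had received Pig-a knock-out marrow were set against GPI-positive marrow cells of untransplanted wild type, over all genes that the array annotation names by 1 symbol. The arrays were chosen by their titles within batch 2, which gave 4 arrays on each side, 8 of the 17 arrays of the series. The first side held cells sorted as lacking glycosylphosphatidylinositol (GPI) anchored proteins from C57BL/6 recipients. Those mice had been irradiated with 9 Gy and infused with knock-out donor marrow enriched for GPI-deficient cells by exposure to aerolysin (10 nM, 30 minutes), which is a bacterial toxin lethal to cells with GPI-anchored proteins. The second side held cells sorted as GPI-normal from untreated C57BL/6 mice. Marrow of femurs and tibias was stained for both sorts with fluorescein-labelled antibodies against Gr-1, CD24 and CD48, all GPI-anchored. The titles call the arrays biological replicates without naming animals, so p-values measure only the spread between arrays. The sources used here give neither the Cre line or cells in which Pig-a was deleted nor the number of recipients' own cells left after irradiation. GPI status, sort gate, toxin treatment, irradiation and transplantation all differ between the 2 sides and cannot be told apart in this comparison.

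The GPI anchor is a glycolipid that holds a diverse set of proteins on the outer face of the cell membrane. Piga encodes the catalytic subunit of the enzyme that starts its synthesis on the endoplasmic reticulum, and blood cells without it lose all proteins of this class. In humans, an acquired PIGA mutation in a blood stem cell causes paroxysmal nocturnal haemoglobinuria, in which GPI-deficient and normal blood cells live side by side.

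Levels are log2 signals of the deposited table. A difference is the mean of the GPI-negative graft cells minus that of wild type, with the standard error (SE) of a limma fit over all 17 arrays. That fit pools the spread of all 5 groups, so an SE can be too small for genes that vary most among the graft arrays. Over the brighter genes the median standard deviation (SD) was 0.165 in graft cells and 0.136 in wild type. It was 0.064 in GPI-positive and 0.174 in GPI-negative cells of knock-out marrow. A gene was called when its limma p-value, adjusted by Benjamini-Hochberg over 14235 genes, was under 0.05. Of these genes 1765 were called (12.4%), of which 975 were higher (6.85% of those tested) and 790 lower (5.55%). At least 2-fold differences were found for 108 of the higher and 116 of the lower genes. The 4 and 4 arrays did not overlap for 2325 genes (16.3%; 9.32% higher and 7.02% lower), for which the exact two-sided permutation p is 0.02857, the smallest that 4 against 4 allows. Correlations between arrays over these genes ran from 0.984 to 0.988 within the graft cells and from 0.989 to 0.990 within wild type, and from 0.973 to 0.979 across the 2 sides. The slope of the hybridisation controls was 1.12 to 1.14 on the graft arrays and 1.14 to 1.21 on the wild-type arrays and did not overlap (exact permutation p = 0.02857). The 3′ minus 5′ signal of Gapdh, a measure of RNA integrity, was -0.95 to -0.33 and -0.96 to -0.84 (exact permutation p = 0.2). The part of the control slope in the results was not tested. Gene lists used below were chosen with earlier results of these data known. Their counts are to be read beside the 6.85% higher and 5.55% lower of all genes and are not independent support.

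Piga was lower in the graft cells than in wild type by the largest difference of the comparison. Its levels on the 4 graft arrays were 0.16, 0.13, 0.77 and 0.39, and on the 4 wild-type arrays 3.92, 4.03, 4.15 and 4.11. Every graft array lay near the lowest values of its array, with the group mean at percentile 9.33 of all probe sets, while wild type was tight around 4. The difference was -3.69 ± 0.14 (SE, n = 4 and 4, limma adjusted p = 2.5e-13), or about 12.9-fold, and is approximate since signals flatten near the floor. A dimmer second Piga probe set differed by -0.86 without overlap. The labels of the arrays and the targeted gene thus ran the same way on all 8 arrays.

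Among the other 26 tested genes of GPI anchor synthesis, 3 rose and 1 fell, and the median over all 27 was 0.04, against 0.02 over all genes. The one that fell with Piga was Pigq, whose product is a partner of PIGA in the same first enzyme. Pigq levels were 6.24, 6.04, 5.40 and 5.68 in graft cells and 7.18, 7.02, 7.13 and 7.42 in wild type, with no overlap. The difference was -1.35 ± 0.21 (limma adjusted p = 0.00015). The 4 other bright Pigq probe sets differed by -1.02 to -1.36, whereas a dim pair near the floor differed by -0.15 and -0.07. The GPI-positive cells from mice given wild-type marrow lay between, at 6.32, 6.62 and 6.64. Pgap1, which removes an acyl chain from the finished anchor, rose by 0.57 ± 0.13, but its adjusted p was 0.057 when all probe sets of a gene were averaged. Pigf, which acts late in bridging the anchor to the protein, rose by 0.50 ± 0.10 (adjusted p = 0.0026). Pigk, the catalytic subunit of the transamidase that attaches the anchor, rose by 0.33 ± 0.10 (adjusted p = 0.027), a call lost in 8 of 19 alternatives, with adjusted p up to 0.19, among them each fit without graft replicate 1 or 3 or without any 1 wild-type array, the block and averaged probe sets. Dpm1, which makes the mannose donor, and Pigx, a subunit of the first mannosyltransferase, were not called at 0.25 and 0.32.

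The antigens used for the sort did not move as a group. Cd24a, the gene of CD24, was 10.06, 10.31, 10.35 and 10.42 in graft cells and 11.09, 11.14, 11.20 and 11.05 in wild type. The groups did not overlap, the difference was -0.83 ± 0.13 (adjusted p = 0.00013), and all 3 Cd24a probe sets ran the same way. Cd48 was higher in the graft cells, at 6.68, 6.35, 6.32 and 6.54 against 5.82, 5.63, 5.29 and 5.68, a difference of 0.87 ± 0.12 (adjusted p = 5.7e-05). Of the genes of Gr-1, Ly6g was not tested, so the values cover Ly6c1 and Ly6c2 only. A probe set shared by these 2 genes stood at 9.78 ± 0.26 (SD, n = 4) in graft cells and 9.61 ± 0.10 in wild type. The difference of 0.17 was within the spread (exact permutation p = 0.3143). Of 23 genes for GPI-anchored proteins that were tested, 8 rose and 4 fell, with a median of 0.15. The falls numbered 2 without graft replicate 2 or wild-type replicate 2, 3 or 4, with the block and with probe sets averaged. The rises included Thy1, Bst2 (an interferon-inducible virus tether, 1.5 ± 0.14) and Cd14 (the lipopolysaccharide co-receptor of monocytes, 1.11 ± 0.15), and the falls Prnp, the prion protein gene (-1.09 ± 0.18). The abundant genes Cd52 and Ly6e were not called at -0.06 and 0.20.

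**Figure D1:**
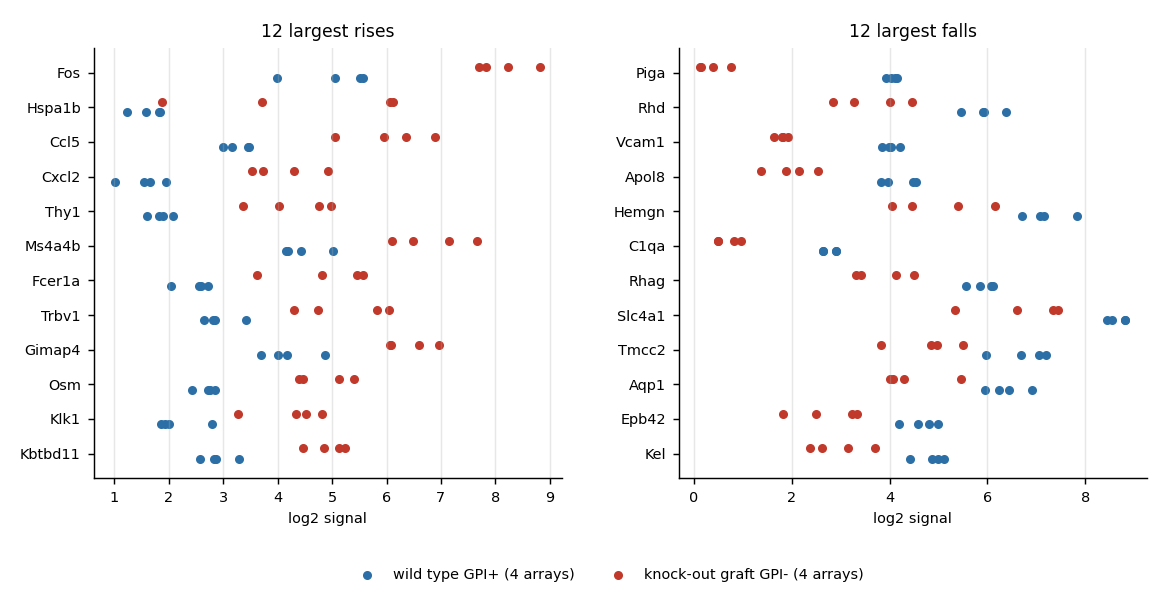
Log2 signal (horizontal axis) of the 12 genes with the largest rises (left) and the 12 with the largest falls (right) that were called, did not overlap and reached the array median in the higher group. Each point is 1 array, red for GPI-negative graft cells and blue for wild type; T-cell and inflammatory genes lead the rises, Piga and red-cell genes the falls, and Hspa1b spreads from 1.88 to 6.12 among the graft arrays.

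Genes of T cells were higher in the graft cells. T cells are made in the thymus, and a small mature population lives in the marrow and carries the CD3 receptor complex. Of 29 tested T-cell genes, 20 rose and none fell at an adjusted p under 0.05 by limma, the other 9 were not called, and the median difference was 0.98. Thy1, a GPI-anchored protein of mouse T cells, was 4.98, 4.75, 3.37 and 4.02 in graft cells and 2.07, 1.89, 1.59 and 1.83 in wild type. All graft arrays lay above all wild-type arrays, and replicates 1 and 2 were highest. The difference was 2.44 ± 0.23 (adjusted p = 5.7e-07), or 5.41-fold. Trbv1, a segment of the T-cell receptor beta chain, rose by 2.30 ± 0.26, and Ms4a4b, a membrane protein of T cells, by 2.41 ± 0.24. The receptor subunits Cd3d and Cd3g rose by 1.96 ± 0.25 and 1.95 ± 0.20 and Cd3e by 1.5 ± 0.24. Both chains of CD8, the co-receptor of cytotoxic T cells, rose, Cd8a by 1.63 ± 0.22 and Cd8b1 by 1.94 ± 0.26. Cd4, the helper co-receptor, was near the floor in both groups, at 1.13 ± 0.45 and 0.77 ± 0.15 (SD, n = 4 each), and was not called at 0.36 ± 0.16. Il7r and Lef1, which early B cells also express, were not called at -0.08 and 0.32. Zap70, the lowest of the list, and Il2ra were not called either, at -0.58 and -0.21. As in any bulk RNA, more cells of a type and more RNA per cell cannot be told apart here.

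The mean level of the T-cell list was 3.28, 3.11, 2.48 and 2.60 on the graft arrays and 1.85 to 2.09 on the wild-type arrays. Gimap4, of a family of GTPases that act in lymphocyte survival, was also highest on graft replicates 1 and 2, at 6.96, 6.60, 6.09 and 6.06 against 4.88, 4.18, 3.69 and 4.0, and rose by 2.24 ± 0.20. Bcl2, the anti-apoptotic founder of its family, rose by 1.31 ± 0.16 (adjusted p = 1.2e-05) from 3.0 ± 0.29 to 4.31 ± 0.33, also highest on graft replicate 1.

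Natural killer and cytotoxic genes rose alongside, with 16 of 21 called higher, none lower, and a median of 0.82. Ccl5, a chemokine stored by cytotoxic and memory T cells and by natural killer cells, was 6.89, 6.37, 5.06 and 5.96 in graft cells and 3.47, 3.46, 3.0 and 3.16 in wild type. The groups were far apart and the difference was 2.80 ± 0.26 (adjusted p = 5.2e-07), or 6.94-fold. Ctsw, a protease of cytotoxic cells, rose by 1.86 ± 0.18. The lectin-like receptor genes Klrc1 and Klrd1, whose products pair on natural killer cells, rose by 1.79 ± 0.27 and 1.5 ± 0.22. Gzmb, a granule protease, rose by 1.09 ± 0.21, and the transcription factors of this lineage, Eomes and Tbx21, by 1.08 ± 0.17 and 0.95 ± 0.14. Prf1, which forms pores in target cells, was not called at 0.37 ± 0.15. The homing molecules Cxcr3, a chemokine receptor of activated T cells, and Itgb7, an integrin of gut homing, rose by 1.53 ± 0.20 and 1.53 ± 0.14. Of the 21 tested genes of adhesion and homing, 8 rose and 1, Vcam1, fell, and the abundant Cd44 and Itgb2 were not called at -0.03 and 0.10.

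Genes of plasmacytoid dendritic cells, which make type I interferon, rose for 10 of 17 tested genes and fell for 1, with a median of 0.43. Siglech, a surface lectin of these cells, was 4.53, 4.07, 4.11 and 3.71 in graft cells and 2.82, 2.86, 2.41 and 2.87 in wild type. No arrays overlapped, and the difference was 1.37 ± 0.17 (adjusted p = 2e-05). Klk1, a kallikrein found in these cells in mice, rose by 2.09 ± 0.24, Cox6a2 by 1.23 ± 0.17 and the chemokine receptor Ccr9 by 1.11 ± 0.20. Irf8, a factor of dendritic cells and monocytes, rose by 0.85 ± 0.12. The gene that fell was Spib (-0.65 ± 0.15), which B cells express as well. Ly6d, Bcl11a, Irf7 and Tlr9 of the same list were not called at -0.39, -0.25, -0.21 and 0.01. GPI-positive cells from mice given wild-type marrow had lower Siglech than wild type, at 1.89, 1.48 and 2.28 (-0.86, limma adjusted p = 0.031).

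MHC class II and conventional dendritic cell genes rose for 12 of 18 tested genes, with none lower and a median of 0.60. H2-Ab1, a class II chain that presents peptides to helper T cells, was 6.57, 5.88, 6.79 and 6.05 in graft cells and 5.30, 4.73, 4.80 and 4.99 in wild type. The lowest graft array lay above the highest wild-type array and the difference was 1.36 ± 0.18 (adjusted p = 2.7e-05). H2-Eb1, H2-Aa and the peptide exchanger H2-DMa rose by 1.30 ± 0.19, 1.17 ± 0.16 and 1.14 ± 0.15. Their order among the graft arrays differed from that of the T-cell genes: H2-Ab1, H2-Eb1 and H2-Aa were highest on replicate 3, where the T-cell list was lowest. Ciita, the regulator of class II transcription, and Flt3, a receptor of dendritic cell progenitors, were not called at 0.28 ± 0.12 and 0.13 ± 0.17. The dendritic cell members Zbtb46, Xcr1 and Batf3 differed by 0.05, 0.18 and 0.40, and Itgax and Cd209a by 0.58 and 0.55. All were smaller differences than those of the H2 genes named above.

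Monocyte genes rose and macrophage genes fell in the same cells. Of 23 tested monocyte genes, 18 rose and none fell, with a median of 0.84. S100a4, a calcium-binding protein of monocytes, was 7.17, 7.70, 7.04 and 7.15 in graft cells and 5.47, 5.09, 5.28 and 5.41 in wild type. Both groups were tight and well apart, with a difference of 1.95 ± 0.13 (adjusted p = 1.3e-08), or 3.88-fold. Ms4a6b and Ms4a6c rose by 1.66 ± 0.17 and 1.13 ± 0.18. Ccr2, the receptor that draws monocytes out of the marrow, rose by 1.05 ± 0.19, Cd68, an endosomal glycoprotein, by 1.00 ± 0.11, and Cx3cr1, the fractalkine receptor, by 0.74 ± 0.15. Lyz1 and Cybb, which neutrophils also express at high levels, were not called at 0.15 and 0.09. Lysosomal genes moved with them: 11 of 21 rose, none fell, and the median was 0.39. Ctsl and Ctsh, cathepsins, rose by 1.27 ± 0.14 and 0.89 ± 0.10, and Lipa, the lysosomal lipase, and Psap, the saposin precursor, by 0.76 ± 0.15 each, while Ctsd was not called at -0.03.

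Of 17 tested genes of resident marrow macrophages, which surround maturing red cells and clear dying ones, 10 fell, none rose, and the median was -0.48. Vcam1, an adhesion molecule of these macrophages and of stroma, was 1.65, 1.93, 1.83 and 1.80 in graft cells and 4.03, 3.85, 4.0 and 4.21 in wild type. The spread within each side was small against a difference of -2.22 ± 0.10 (adjusted p = 4.1e-12), or 4.65-fold. C1qa, a chain of the first complement component, was 0.49, 0.98, 0.49 and 0.82 against 2.91, 2.64, 2.65 and 2.92. It fell by 2.08 ± 0.15, with C1qc at -1.83 ± 0.16 and C1qb at -1.60 ± 0.13, and all 3 lay near the floor in graft cells. Cd5l, Mrc1 (a mannose receptor) and Cd163 (the haemoglobin scavenger receptor) fell by 1.04 ± 0.15, 0.88 ± 0.16 and 0.83 ± 0.14. Apoe and Lgmn, which monocytes and dendritic cells share, were not called at 0.32 and 0.37. Exceptions were not limited to shared genes: Siglec1, Vsig4, Mertk and Maf differed by only -0.20, -0.15, -0.36 and 0.04, and Axl by -0.70. Stromal, endothelial, fat and bone genes gave little signal on either side: 12 of 18 tested members lay below the array median in both groups, their mean level was 1.39 to 1.53 on graft arrays and 1.38 to 1.46 on wild-type arrays, and Lpl was the member called (1.04 ± 0.15).

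**Figure D2:**
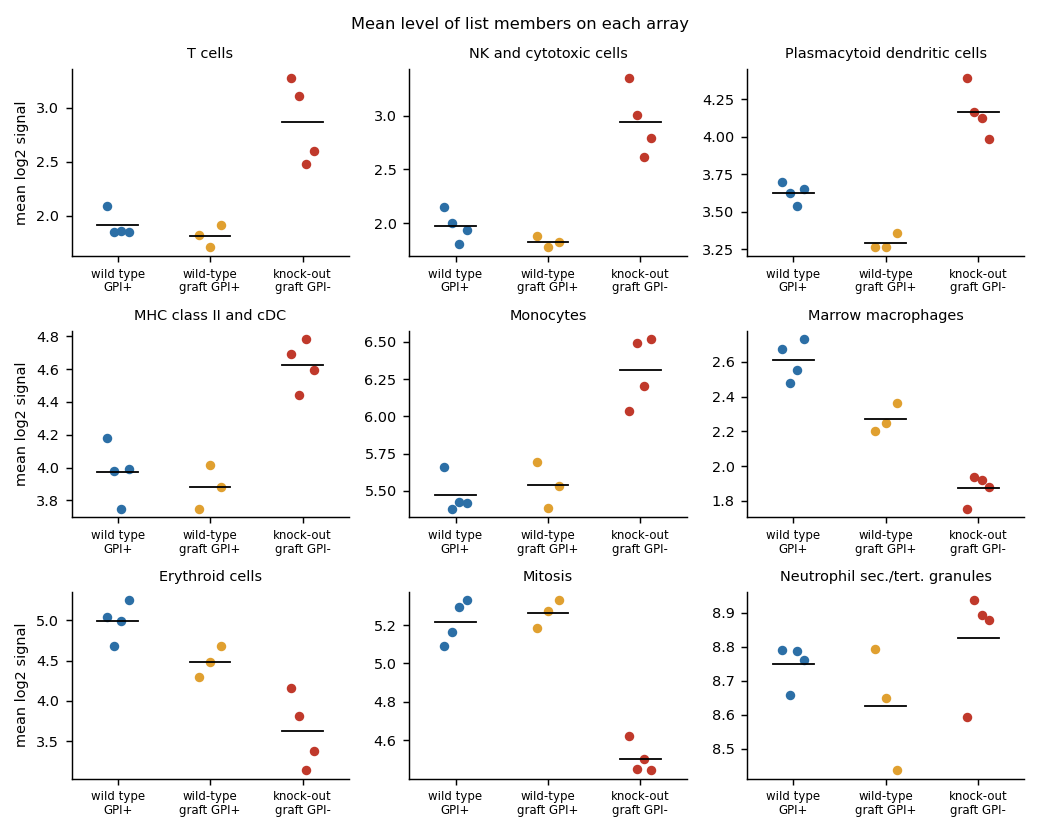
Mean log2 signal of the tested members of 9 gene lists on each array of batch 2, with group means as black lines. Graft cells (red, n = 4) lie above wild type (blue, n = 4) and above GPI-positive cells from mice given wild-type marrow (orange, n = 3) for T cells (2.48 to 3.28 against 1.85 to 2.09 and 1.71 to 1.91) and monocytes, and below them for macrophages, erythroid cells and mitosis; the granule list of neutrophils overlaps.

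Genes of basophils, some of them shared with mast cells, rose. Fcer1a, the ligand-binding chain of the high-affinity IgE receptor, was 4.81, 5.57, 3.61 and 5.46 in graft cells and 2.72, 2.05, 2.56 and 2.58 in wild type. All graft arrays were higher, replicate 3 least so, and the difference was 2.39 ± 0.27 (adjusted p = 7.1e-06), or 5.22-fold. Mcpt8, a basophil protease, Cpa3, a carboxypeptidase of basophils and mast cells, and Ms4a2, another chain of the IgE receptor, rose by 1.99 ± 0.28, 1.76 ± 0.16 and 1.03 ± 0.24. Each was lowest on graft replicate 3. The eosinophil granule genes Epx and Prg2 were not called at -0.32 ± 0.30 and -0.34 ± 0.40. The mast cell proteases Cma1 and Tpsb2 and the receptor Kit were not called at -0.09, -0.15 and -0.10. Of the whole list of 19 tested genes, 7 rose and 1 fell, and with 1 array left out the fall was called in the fit without graft replicate 4 alone.

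Few genes of the secondary and tertiary granules of neutrophils changed. Of 20 tested, 1 rose, 1 fell, and the median was -0.00. S100a8 held the top value of every array of batch 2, 12.94, so no difference could show, and Ltf, lactoferrin, was not called at -0.02 ± 0.12. The gene that rose was Il1b, an inflammatory cytokine (1.74 ± 0.32), and the one that fell was Chil3 (-0.47 ± 0.14, adjusted p = 0.031). Chil3 lost its call without graft replicate 1, 2 or 4 or wild-type replicate 2, 3 or 4, and with replicate number as a block, with adjusted p up to 0.11. Primary granule genes, which mark earlier stages, gave 2 rises and 3 falls among 12, with a median of -0.08. The share called was thus above the 12.4% of all genes. The rises included Nkg7 (0.60), which the list of natural killer and cytotoxic genes also holds. The falls were Fcnb, a ficolin (-1.17 ± 0.19), Elane, neutrophil elastase (-0.51 ± 0.13), and Gfi1, a repressor needed for neutrophil maturation (-0.54 ± 0.12). Mpo, myeloperoxidase, was not called at -0.38 ± 0.14.

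Genes of red-cell precursors fell in the graft cells. Erythroblasts in the marrow are driven by GATA1 and KLF1, build the band 3 and Rh membrane complexes and make heme. Of 25 tested erythroid genes, 22 fell and none rose by limma, with a median of -1.51. Slc4a1, the band 3 anion exchanger, was 7.34, 7.44, 5.34 and 6.61 in graft cells and 8.81, 8.43, 8.55 and 8.80 in wild type. The highest graft array was below the lowest wild-type array, and the difference was -1.96 ± 0.30 (adjusted p = 0.00014), or 3.90-fold. Rhd and Rhag of the Rh complex fell by 2.27 ± 0.30 and 2.05 ± 0.24. Epb42, which ties band 3 to the membrane skeleton, Kel, the Kell antigen, and Aqp1, a water channel, fell by 1.92 ± 0.30, 1.88 ± 0.28 and 1.92 ± 0.28. Apol8, of the apolipoprotein L family, fell by 2.22 ± 0.26. Hemgn, a nuclear protein of erythroid cells, fell by 2.17 ± 0.34, the transcription factors Klf1 and Tal1 by 1.74 ± 0.28 and 1.45 ± 0.18, and Epor, the erythropoietin receptor, by 1.05 ± 0.17. Nfe2, which megakaryocytes and myeloid cells also express, was not called at 0.03 ± 0.10.

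Heme synthesis and iron uptake fell with them, 15 of 18 tested genes lower, none higher, with a median of -1.05. Alas2, the erythroid first enzyme of heme synthesis, was 6.77, 8.07, 4.72 and 6.64 in graft cells and 8.95, 7.97, 8.45 and 8.85 in wild type. Graft replicate 2 lay inside the wild-type range, and the difference was -2.0 ± 0.46 (adjusted p = 0.0056). Later enzymes fell too, Alad by 1.46 ± 0.23, Urod by 1.24 ± 0.24, Cpox by 1.58 ± 0.23 and Fech by 1.55 ± 0.35. Slc25a37, the mitochondrial iron importer, fell by 1.63 ± 0.27 and Tfrc, the transferrin receptor, by 1.01 ± 0.18, while Tfr2 was not called at -0.43. Of 19 tested antioxidant genes, 5 fell (3 without graft replicate 3) and none rose, led by Prdx2, a peroxiredoxin abundant in red cells (-1.33 ± 0.23), and Cat, catalase (-0.70 ± 0.13). The mean level of the erythroid list was 4.16, 3.81, 3.14 and 3.37 on the graft arrays against 4.68 to 5.25 in wild type, lowest on replicates 3 and 4.

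The promoters of these genes are shown because GATA factors bind the motif AGATAA and KLF1 binds CACCC-type motifs. In windows of 250 bases upstream of the start, matched by symbol to RefSeq (GRCm38.p6), 16 of the 22 erythroid genes that fell had 17 windows. AGATAA, searched on both strands, was in 41.2% of the 17 windows against 9.99% of all 32851 windows. CCNCNCCC was in 52.9% against 45.9%. In the 17 windows of 12 heme and iron genes that fell, AGATAA was in 5.88% and CCNCNCCC in 58.8%. Neither motif can overlap the other, and a match describes letters, not a bound site. The last 120 bases before the start are given for the 3 genes with the largest falls among the 5 of both lists that hold AGATAA there, with the motif on either strand in capitals. They lie at chr4:134864416-134864535 (plus strand, Rhd), chrX:150547297-150547416 (plus, Alas2) and chr6:41704326-41704445 (minus, Kel).

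Rhd: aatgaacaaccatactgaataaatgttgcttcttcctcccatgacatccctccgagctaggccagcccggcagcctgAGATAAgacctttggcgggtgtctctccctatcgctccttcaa
Alas2: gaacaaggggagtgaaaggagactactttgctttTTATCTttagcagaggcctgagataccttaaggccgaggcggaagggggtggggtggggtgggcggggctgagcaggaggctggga
Kel: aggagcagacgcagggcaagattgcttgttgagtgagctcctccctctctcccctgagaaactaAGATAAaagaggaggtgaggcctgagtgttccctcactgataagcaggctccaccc

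Genes of mitosis fell almost as a whole. Their products condense chromosomes, build the spindle and mark proteins for destruction as cells divide. Of 33 tested mitosis genes, 30 fell, none rose, and the median was -0.74, against 0.02 over all genes. Ube2c, the ubiquitin-conjugating enzyme of the anaphase-promoting complex, was 6.21, 6.31, 6.00 and 6.07 in graft cells and 7.43, 7.28, 7.43 and 7.77 in wild type. Neither side overlapped the other, and the difference was -1.33 ± 0.20 (adjusted p = 0.00014). Cenpf, of the kinetochore, Birc5 (survivin) and Nusap1, a spindle protein, fell by 1.11 ± 0.15, 1.06 ± 0.15 and 1.00 ± 0.12. Cdk1 (the mitotic kinase), Cdc20 and Prc1 fell by 0.82 ± 0.15, 0.84 ± 0.10 and 0.92 ± 0.13, and Mki67, the source of the Ki-67 antigen, by 0.82 ± 0.13. The members not called were Kif4 (-0.44 ± 0.15), Ncapg (-0.26 ± 0.12) and Foxm1 (-0.16 ± 0.12).

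DNA replication genes gave 15 falls and no rise among 30, with a smaller median of -0.39. Rrm2, which supplies deoxynucleotides, was 7.68, 7.20, 7.30 and 7.17 in graft cells and 8.41, 8.36, 8.39 and 8.56 in wild type, and fell by 1.09 ± 0.15 (adjusted p = 3.8e-05). Rfc4, a clamp loader subunit, Cdc6, an origin licensing factor, and Tk1, thymidine kinase, fell by 0.76 ± 0.14, 0.73 ± 0.17 and 0.69 ± 0.16. Pcna, the sliding clamp, fell by 0.67 ± 0.15, while Mcm6, of the replicative helicase, and Cdt1, which loads it, were not called at 0.02 ± 0.13 and -0.12 ± 0.11. The mean level of the mitosis list was 4.44 to 4.62 on graft arrays and 5.09 to 5.33 on wild-type arrays. The erythroid list moved in the same direction, and its part in the fall of the cycle genes was not tested. On graft replicates 1 to 4 the mean level of the erythroid list was 4.16, 3.81, 3.14 and 3.37. That of the mitosis list was 4.62, 4.45, 4.50 and 4.44. Both were highest on replicate 1, but the erythroid list was lowest on replicate 3 and the mitosis list on replicate 4.

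Promoters of the mitosis genes are shown for 2 motifs of cell-cycle promoters, the CCAAT box, which NF-Y binds, and TTTGAA, a form of the element through which the MuvB complexes act. Windows of 250 bases were found for 26 of the 30 genes that fell, 28 windows in all. CCAAT, on either strand, was in 82.1% of them against 33.9% of all 32851 windows, TTTGAA in 42.9% against 16%, and the variant TTCGAA in 7.14% against 1.34%. A CCAAT and a TTTGAA can share at most 1 end base. Of 7 genes that hold both kinds within 120 bases of the start, those with the largest falls are given, with the motifs in capitals in either orientation (ATTGG and TTCAAA on the printed strand are their reverse). They lie at chr2:164769809-164769928 (plus strand, Ube2c), chr7:80294356-80294475 (plus, Prc1), chr4:118437344-118437463 (minus, Cdc20) and chr10:69352913-69353032 (minus, Cdk1).

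Ube2c: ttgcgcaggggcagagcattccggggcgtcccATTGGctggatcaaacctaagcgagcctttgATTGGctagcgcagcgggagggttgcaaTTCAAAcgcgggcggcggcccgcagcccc
Prc1: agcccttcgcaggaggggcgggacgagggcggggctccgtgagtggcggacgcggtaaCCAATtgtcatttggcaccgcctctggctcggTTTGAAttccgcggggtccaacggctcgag
Cdc20: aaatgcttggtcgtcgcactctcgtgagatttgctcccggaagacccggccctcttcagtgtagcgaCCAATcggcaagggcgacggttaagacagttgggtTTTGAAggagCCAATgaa
Cdk1: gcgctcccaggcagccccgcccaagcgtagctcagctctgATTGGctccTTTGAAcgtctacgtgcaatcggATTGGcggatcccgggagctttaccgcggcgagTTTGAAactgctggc

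Genes of B-lineage cells moved in both directions. Of 18 tested genes of early B cells, 3 fell, none rose, and the median was -0.25. Ebf1, a factor that sets B-cell identity, fell by 0.63 ± 0.15 (adjusted p = 0.0079), whereas Pax5 and the recombinase gene Rag1 were not called at -0.24 ± 0.12 and -0.15 ± 0.15. Sox4 and Vpreb3 fell by 0.57 ± 0.18 and 0.53 ± 0.16, with adjusted p of 0.04 and 0.036. Both lost their calls without graft replicate 2 or 4 or wild-type replicate 2 or 3, with no intensity trend and with replicate number as a block. Sox4 also did so without wild-type replicate 1 and with a robust prior, and Vpreb3 without wild-type replicate 4 and in the fits on fewer arrays, those of batch 2 or the 8 compared (adjusted p up to 0.16 and 0.14). The count of falls ran from 1 to 5 with 1 array left out, with 5 without graft replicate 3. Of 18 tested genes of mature B cells, 5 rose and 6 fell. In this list, chosen with earlier results of these data known, 11 of 18 were thus called, against 12.4% of all genes. The rises were fewer, 2 or 3, without graft replicate 1 or 3 or wild-type replicate 3 or 4. Tnfrsf13c, the receptor for the survival factor BAFF, fell by 0.91 ± 0.18, Cd72, an inhibitory co-receptor, by 0.82 ± 0.18 and the kinase Blk by 0.70 ± 0.16. Fcer2a, the low-affinity IgE receptor of mature B cells, rose by 0.75 ± 0.14. Ighm, the IgM heavy chain, was 8.57, 8.39, 10.55 and 8.82 in graft cells and 9.91, 10.15, 9.68 and 9.97 in wild type, was highest of all on graft replicate 3, and was not called (-0.84 ± 0.29).

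Of 15 tested genes of antibody-secreting cells, 2 rose, 1 fell and the median was 0.06. Igha, the IgA heavy chain, was 8.33, 8.97, 8.45 and 8.87 in graft cells and 7.39, 7.11, 7.85 and 7.80 in wild type, with no overlap, and rose by 1.12 ± 0.26 (adjusted p = 0.0069). Jchain, which joins IgA and IgM chains, was 6.26, 7.09, 7.91 and 6.23 against 5.77, 6.38, 5.35 and 5.72, and rose by 1.07 ± 0.31 (adjusted p = 0.026). The groups overlapped for Jchain, and the call was lost without graft replicate 2 or 3 or wild-type replicate 1, 3 or 4 and with a robust prior (adjusted p up to 0.1). Igk, of the kappa light chain, was not called at 0.13 ± 0.49. The gene that fell, Irf4, a factor of plasma cells and activated lymphocytes (-0.56), lost its call in 6 of 19 alternatives, all with 1 array left out. Xbp1, the secretory regulator, and Sdc1, a surface marker of plasma cells, were not called at 0.12 and -0.20.

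**Figure D3:**
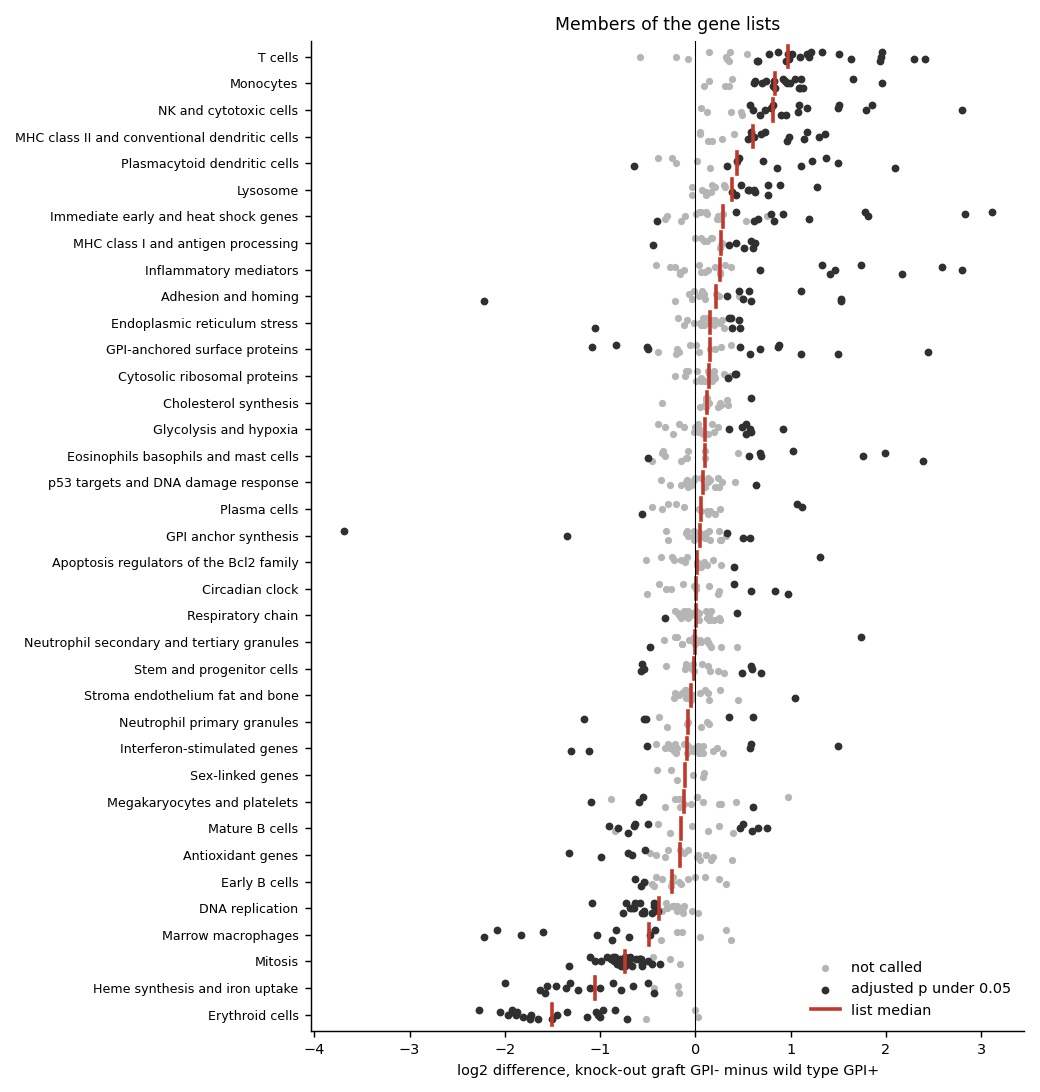
Log2 differences between GPI-negative graft cells and wild type (horizontal axis) for the tested members of 37 gene lists, ordered by list median (red). Black points are called genes and grey points are not; T-cell, monocyte and cytotoxic lists lie at the top with medians of 0.98, 0.84 and 0.82, and erythroid, heme and mitosis lists at the bottom with -1.51, -1.05 and -0.74.

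Immediate early and inflammatory genes rose for some members only. Fos, a subunit of the AP-1 transcription factor that cells induce within minutes of a stimulus, was 8.22, 7.82, 7.70 and 8.83 in graft cells and 5.51, 5.57, 5.05 and 3.99 in wild type. The groups were separated by over 2 log2 units, and the difference was 3.11 ± 0.37 (adjusted p = 1.1e-05), or 8.65-fold. Dusp1, a phosphatase of the same response, and Junb, another AP-1 subunit, rose by 1.82 ± 0.36 and 1.19 ± 0.21. Egr1 and Jun were not called at 0.11 ± 0.18 and 0.75 ± 0.27. Of the 27 tested genes of the list 11 rose and 1 fell, with a median of 0.28.

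The heat shock gene Hspa1b, an inducible HSP70, was 1.88, 3.71, 6.07 and 6.12 in graft cells and 1.83, 1.81, 1.58 and 1.23 in wild type. Graft replicate 1 stood 0.05 above the highest wild-type array while replicates 3 and 4 were far above, so that the difference of 2.83 ± 0.66 (adjusted p = 0.0063) was set by 3 arrays. Its near-identical neighbour Hspa1a was 0.54, 1.69, 3.39 and 3.93 against 0.42 to 0.85, with the same order among graft arrays. Hspa1a rose by 1.78 ± 0.48, and lost the call without graft replicate 3 or 4 and with a robust prior (adjusted p up to 0.08). Transcripts of the 2 near-identical copies may bind each other's probes.

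Among 23 tested inflammatory mediators 8 rose and none fell, with a median of 0.25. Cxcl2, a chemokine for neutrophils, was 4.30, 3.53, 3.73 and 4.92 in graft cells and 1.94, 1.55, 1.65 and 1.01 in wild type, and rose by 2.58 ± 0.35 (adjusted p = 4.1e-05). Osm, a cytokine of the interleukin-6 family, was 5.13, 4.47, 4.40 and 5.41 against 2.76, 2.85, 2.71 and 2.42, and rose by 2.17 ± 0.27. For Fos, Cxcl2 and Osm the same graft array, replicate 4, was highest and the same wild-type array, replicate 4, lowest. Ccl3 and Ccl9, chemokines of myeloid cells, and Ptgs2, the inducible cyclooxygenase, rose by 1.33 ± 0.23, 1.41 ± 0.16 and 1.47 ± 0.26, whereas Tnf was not called at 0.06 ± 0.18. Cebpb, a transcription factor of inflammatory myeloid cells, rose by 1.68 ± 0.25.

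Interferon-stimulated genes did not move as a group: 3 of 29 rose, 3 fell and the median was -0.09. The falls numbered 5 without graft replicate 2 and 1 without graft replicate 3 or 4 or wild-type replicate 1 or 4, with no intensity trend and with a robust prior. Bst2 was the largest rise (1.5), and Mx1, an antiviral GTPase, rose by 0.58 ± 0.14. Isg20 was the largest fall, at 4.92, 5.79, 3.91 and 4.38 against 6.27, 5.67, 5.95 and 6.33 (-1.31 ± 0.33, adjusted p = 0.01, and 0.056 with a robust prior). Rsad2, viperin, fell by 1.12 ± 0.34 (adjusted p = 0.036), a call lost in 8 of 19 alternatives (up to 0.13), while Ifit1, a strongly inducible member, was not called at -0.41 ± 0.19. Antigen processing for MHC class I rose for 6 of 16 tested genes and fell for 1, with a median of 0.26. Nlrc5, the regulator of class I transcription, rose by 0.58 ± 0.13, the immunoproteasome subunit Psmb10 by 0.51 ± 0.10 and H2-M3, which presents formylated peptides, by 0.63 ± 0.11. The classical class I genes H2-K1 and H2-D1 were not called at 0.16 and 0.09.

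The remaining lists had medians between -0.12 and 0.15, and some had a larger share of calls than the 12.4% of all genes. The Bcl2 family had 2 rises among 17 (1 without graft replicate 2 or wild-type replicate 1, 2 or 3), with Mcl1 not called at 0.27 ± 0.15. Targets of p53 had 1 rise, Plk3 (0.64 ± 0.13), among 20, and Cdkn1a, the cell-cycle inhibitor, was not called at 0.24 ± 0.13. Respiratory chain genes gave 1 rise (2 without graft replicate 3 or 4) and 1 fall (none without graft replicate 2 or 3 or wild-type replicate 2 or 3) among 27, with a median of 0.01, and cytosolic ribosomal proteins 3 rises among 21, with a median of 0.14. Genes of the endoplasmic reticulum stress response gave 5 rises (3 without graft replicate 4 or wild-type replicate 1 or 4) and 1 fall among 22, the fall being Asns, asparagine synthetase (-1.06 ± 0.13). Cholesterol synthesis had 1 rise among 15 (2 without wild-type replicate 1). Glycolysis and hypoxia genes had 7 rises among 22 with a median of 0.11, including Hif1a (0.53 ± 0.13, with adjusted p = 0.1 when probe sets were averaged), and clock genes 4 among 15, including the repressors Nfil3 (0.97 ± 0.18) and Per1 (0.83 ± 0.17). Stem and progenitor genes gave 4 rises and 3 falls among 19, with Slamf1 higher (0.60 ± 0.14) and Kit, the stem cell factor receptor, not called at -0.10. With 1 array left out the rises ran from 1 (without graft replicate 4) to 4 and the falls from 1 (without graft replicate 4 or wild-type replicate 3) to 3. Of these calls, Gata2, Cd34 and Sox4 were lost in 3, 6 and 8 of 19 alternatives. Megakaryocyte genes gave 1 rise, Selp (0.60 ± 0.11), and 3 falls among 19, led by Gfi1b, a repressor shared with red-cell precursors (-1.10 ± 0.20), with Pf4 not called at 0.01. The other falls, Gp9 and Clec1b of platelets, were each lost in 7 of 19 alternatives, and the list had 1 or 2 falls whichever array was left out. Of 6 tested sex-linked genes limma called none.

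GPI-positive cells from C57BL/6 mice given wild-type marrow (3 arrays of the same batch) give another reference, which shares transplantation with the graft cells and GPI status with wild type. Their titles do not call the donor marrow enriched, and no irradiation dose or toxin treatment is recorded for them here. GPI status, sort gate and enrichment, and possibly irradiation, separate them from the graft cells and cannot be told apart. Because each comparison with them reuses arrays of the comparison above, values are given side by side and no overlap is counted. Against these recipients the graft cells had 1053 called genes of 14235 (7.4%; 3.95% higher and 3.45% lower), and these recipients had 120 called against wild type (0.843%; 0.45% higher and 0.393% lower), a count that ran from 45 with replicate number as a block to 353 with array weights. T-cell genes gave 20 rises among 29 and a median of 0.95 between graft cells and these recipients, and no call between these recipients and wild type. Mitosis genes gave 30 falls among 33 with a median of -0.76, and no call in the other contrast. Monocyte genes gave 15 rises among 23, and no call. Erythroid genes gave 12 falls among 25 with a median of -0.87 against these recipients, which themselves had 1 fall against wild type and a median of -0.49. For macrophage genes the counts were 6 falls and 1 rise among 17, and 2 falls, with medians of -0.16 and -0.32. Interferon-stimulated genes gave 13 rises among 29 against these recipients (median 0.38), which had 5 falls against wild type (-0.46). Primary granule genes gave 7 falls among 12 against these recipients (-0.55), which had 4 rises against wild type (0.41).

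Single genes of both patterns are given. Ccl5 was 2.92, 2.87 and 3.67 in recipients of wild-type marrow, close to the wild-type arrays, and Vcam1 was 3.72, 3.84 and 3.66. Both lay nearer to wild type than to the graft cells at 5.06 to 6.89 and 1.65 to 1.93, though Vcam1 was below all 4 wild-type arrays. Fos was 8.24, 6.47 and 6.07 in these recipients, above wild type on all 3 arrays (1.90, adjusted p = 0.027), and did not pass the test against graft cells (1.22, adjusted p = 0.072). The largest rises shared in this way after Fos and G0s2 were Erdr1 (7.50, 7.83 and 7.72, against 6.24 to 7.0 in wild type) and Selenoh (5.66, 5.66 and 5.64, against 4.21 to 5.06). G0s2, an inhibitor of fat breakdown, was 5.83, 5.04 and 4.47 there, against 5.10 to 5.82 in graft cells and 3.66 to 4.0 in wild type. Jchain had its highest mean in these recipients, at 8.02, 8.14 and 7.18. On the lower side, Epb42 was 2.87, 3.40 and 3.60, Cpox 3.59, 3.95 and 2.95, Slc25a37 6.15, 6.68 and 6.61, and the nuclear exporter Xpo7 5.72, 6.25 and 6.56, each below all 4 wild-type arrays. Tmcc2, of the late erythroid program, was 4.46, 5.03 and 5.69, and Asprv1, a protease, 3.33, 3.5 and 2.81, also below wild type. For these 6 genes the differences between these recipients and wild type were -1.35, -1.19, -1.46, -1.22, -1.67 and -1.33 and passed the test, while those between graft cells and these recipients were -0.57, -0.39, -0.17, -0.01, -0.28 and 0.11 and did not. The 6 genes, like the shared rises above, were chosen for passing the first test and not the second. Their outcome in these tests was thus set by the choice. Fos and Cxcl2 were highest on replicate 1 of these recipients by over 1 log2 unit, so their group means rest largely on that array.

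**Figure D4:**
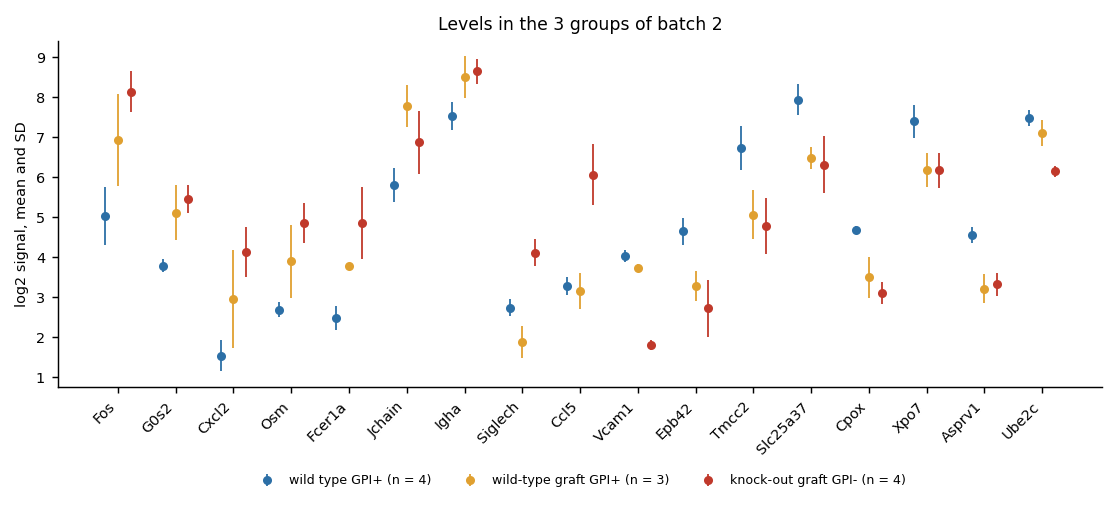
Mean log2 signal (points) with SD (bars) of 17 genes in the 3 groups of batch 2, wild type in blue (n = 4), GPI-positive cells from mice given wild-type marrow in orange (n = 3) and GPI-negative graft cells in red (n = 4). Fos, G0s2, Epb42, Tmcc2, Slc25a37, Cpox, Xpo7 and Asprv1 in both transplanted groups lie on the same side of wild type, whereas Ccl5, Vcam1 and Ube2c set the graft cells apart. Genes on the same side are shown because they met a rule on these same comparisons.

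The same genes were read in Pig-a knock-out marrow that was not transplanted, where GPI-negative and GPI-positive cells were sorted for batch 1 (3 arrays each) and no array is shared. That contrast had 4204 called genes (29.5%). Of the 975 genes higher in graft cells, 398 were also higher there, 40.8% beside 14.8% of all genes called higher there. They made up 18.9% of the genes higher there, beside 6.85% of all genes called higher in graft cells. Of the 790 lower genes 222 were also lower there, 28.1% beside 14.8% of all genes called lower there. They made up 10.6% of the genes lower there, beside 5.55% of all genes called lower in graft cells. In opposite directions were 131 genes higher in graft cells and lower in knock-out marrow, 13.4% of the 975, beside 14.8% of all genes called lower there. Lower in graft cells and higher there were 56 genes, 7.09% of the 790, beside 14.8% of all genes called higher there. Both shares were below those of all genes. The difference between the 2 contrasts, tested as an interaction, was called for 3016 genes (21.2%), with 1640 above 0 (11.5%) and 1376 below (9.67%). The marrow of batch 1 carried Y-linked signal (Eif2s3y at 5.18 to 5.36) and the batch 2 cells did not (0.07 to 0.89), and Xist was 7.40 to 8.18 in batch 2. Within batch 1, Xist was 1.24 to 5.04 in GPI-negative and 1.28 to 1.62 in GPI-positive cells, a difference of 1.87 (limma adjusted p = 0.0081). Array measures also differed between those sorts without overlap. The hybridisation controls averaged 8.32 to 8.93 on the GPI-negative and 6.43 to 6.91 on the GPI-positive arrays, with slopes of 0.87 to 0.98 and 1.06 to 1.08. The 3′ minus 5′ signal of Gapdh was -0.29 to -0.04 and -1.03 to -1.0. The part of these measures in the results on knock-out marrow was not tested. Batch and the mice differ between the experiments and cannot be told apart from transplantation.

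T-cell genes were higher in GPI-negative cells of both experiments, and more so in knock-out marrow. There, 26 of 29 were higher with a median of 2.81, against 0.98 in the graft, and the interaction was below 0 for 25. Thy1 differed by 4.31 and 2.44 (interaction -1.87, limma adjusted p = 0.00057), Trbv1 by 5.04 and 2.30, and Ccl5 by 4.52 and 2.80. Kbtbd11 had a small spread in both, at 4.06 and 2.02 (interaction -2.04, adjusted p = 5.8e-06). Il7r and Nlrc5 were higher by 2.66 and 2.22 in knock-out marrow against -0.08 and 0.58 in the graft. Vcam1 and C1qa fell in both, by 1.81 and 1.76 in knock-out marrow against 2.22 and 2.08, and neither interaction passed the test (adjusted p = 0.062 and 0.37). Mitosis genes fell in both, 23 of 33 in knock-out marrow, with medians of -0.50 and -0.74, and the interaction was called for 3.

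Red-cell and monocyte genes differed between the experiments. Erythroid genes had a median of -0.04 in knock-out marrow with 1 of 25 lower, against -1.51 in the graft, and the interaction was below 0 for 18 and above 0 for 1. Slc4a1 differed by 0.33 and -1.96 (interaction -2.30, adjusted p = 0.0011) and Rhd by 0.02 and -2.27 (-2.29, adjusted p = 0.0012). Monocyte genes gave 2 rises and 7 falls in knock-out marrow with a median of -0.35, and the interaction was above 0 for 19 of 23. S100a4 differed by 0.07 there and 1.95 in the graft (1.88, adjusted p = 5.5e-06). Granule genes of neutrophils fell in knock-out marrow for 17 of 20 with a median of -1.14, and the interaction was above 0 for 16.

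**Figure D5:**
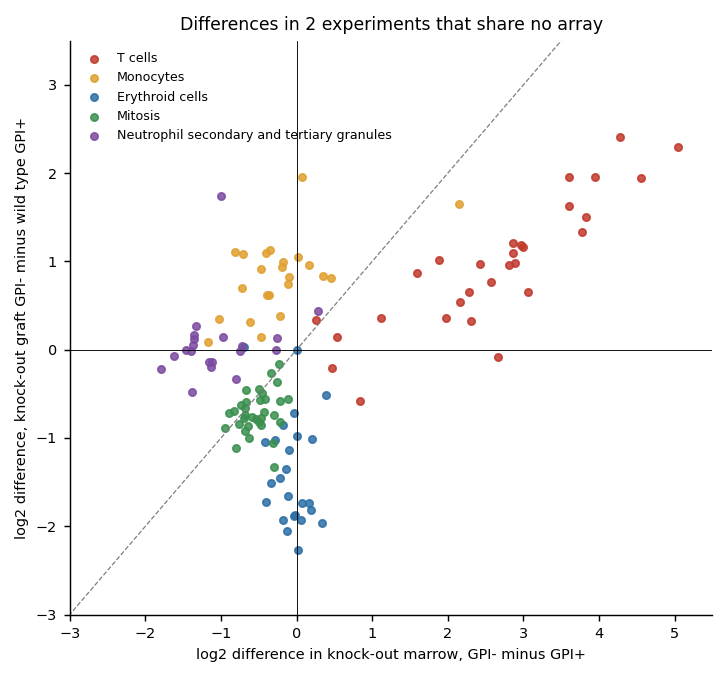
Log2 differences of list members in the graft cells against wild type (vertical axis) and between the GPI-negative and GPI-positive sorts from knock-out marrow (horizontal axis); the dashed line marks equal differences. T-cell genes (red) lie right of the line with medians of 2.81 and 0.98, mitosis genes (green) low on both axes, erythroid genes (blue) low on the vertical axis, and neutrophil granule genes (purple) low on the horizontal axis.

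The genes that moved in opposite directions with the largest interactions included secreted products and inflammatory regulators. Jchain and Igha were lower in GPI-negative cells of knock-out marrow with differences of -3.04 and -2.74, and higher in the graft by 1.07 and 1.12 (interactions 4.10 and 3.86). Cxcl2, Osm and Cebpb differed by -1.57, -0.97 and -1.16 in knock-out marrow and by 2.58, 2.17 and 1.68 in the graft. In the other direction, Cd72 and Id3, an inhibitor of E-protein transcription factors, differed by 0.93 and 0.80 in knock-out marrow and by -0.82 and -0.72 in the graft, and Fbxl12, an adaptor of a ubiquitin ligase, by 0.77 and -0.73. Trib2 and Cd1d1 followed with 1.07 and -0.48, and 1.13 and -0.49. Both of the latter falls were close to the threshold: Trib2 lost its call without graft replicate 4 or wild-type replicate 2 (adjusted p up to 0.052), and Cd1d1 without graft replicate 2, 3 or 4 or wild-type replicate 1, 2 or 4, with no low-value filter, with quantiles over all arrays and with no intensity trend (up to 0.17).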

How the data were processed

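The authors' deposited values for 17 mouse expression arrays were used, with 45101 probe sets each. As deposited, they are log10 intensities, quantile-normalised by the authors within each batch: both facts are read from the values (0 to 3.86 in batch 1, 0 to 3.90 in batch 2), since no source used here states them. Sorted values were identical across the arrays of a batch. Per the labels' protocols, GCOS was the array software. Arrays give no depth, and their number limits the precision.

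Values were converted to log2, and batch 1 was shifted to the median of batch 2 (1.28). Control probe sets (64), probe sets naming several genes (932) and unnamed ones (9160) were left out. Of 34945 probe sets with 1 symbol, 26376 reached the 40th percentile of the array on at least 3 arrays, and the brightest stood for each of 14235 genes. Symbols are those of the platform annotation. limma 3.58.1 in R 4.3.3 fitted 5 group means over all 17 arrays (12 residual degrees of freedom) with an intensity trend. The procedure was tested on simulated data. Exact permutation tests are two-sided. Batch differs between the knock-out marrow and the other groups, so only differences within a batch were compared.

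Lists held 885 genes, of which 760 were tested. Members and lists were chosen with earlier results of these data known. Named genes are Piga and the sort antigens, the 12 largest called differences each way without overlap and with the higher mean at or above the array median, up to 4 called and 2 bright uncalled members of each list, up to 5 opposite to knock-out marrow each way, and up to 6 each way shared with recipients of wild-type marrow. Other list members were named after their values were seen. Alternatives changed the probe set rule, filter, normalisation, arrays fitted, variance prior, weights, the replicate block and each array left out.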

Additional observations from a re-analysis of the deposited data

Results flagged for a closer look

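In 21 of 456 groups of 4 arrays, 1 array stood far from the other 3 by Dixon's ratio, which chance gives in about 5% of groups. Graft replicate 1 did so for 7 genes. Higher there were Dpm1 at 4.71 (others 4.47 to 4.51), Tfrc at 6.69 (5.77 to 5.90), Alad at 4.87 (3.77 to 3.94), Birc5 at 5.78 (5.47 to 5.52) and Cdk1 at 5.57 (5.10 to 5.18). Lower there were Ltf at 10.01 (10.38 to 10.41) and Cd44 at 7.58 (8.13 to 8.15). On the same array the mean level of ribosomal protein genes was 8.99 (8.73 to 8.77), of respiratory chain genes 6.74 (6.51 to 6.53), and of secondary and tertiary granule genes 8.59 (8.88 to 8.94).

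Wild-type replicate 1 stood apart for Klrc1 at 2.14 (1.32 to 1.43), Klk1 at 2.79 (1.86 to 2.0), Cxcr3 at 2.58 (2.14 to 2.21), the mean of T-cell genes at 2.09 (1.85 to 1.86) and the mean of monocyte genes at 5.66 (5.38 to 5.43), all higher than on the other wild-type arrays and so towards the graft cells. Among the other arrays, Cd14 was 3.57 (3.14 to 3.21) on graft replicate 4, Ebf1 3.67 (4.13 to 4.23) on graft replicate 2 and the mean of plasma cell genes 4.53 (4.13 to 4.15) on graft replicate 3. Flt3 was 2.25 (1.97 to 1.98) and Cpa3 3.38 (3.57 to 3.60) on wild-type replicate 2, and Siglech 2.41 (2.82 to 2.87) on wild-type replicate 3.

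The difference between graft cells and wild type was itself different from that between GPI-negative and GPI-positive cells of knock-out marrow, by limma's interaction test, for these of the genes with the largest differences. The interaction (log2, graft minus knock-out marrow) was above 0 for Fos (4.22), Hspa1b (3.20), Cxcl2 (4.15), Fcer1a (3.08) and Osm (3.14). It was below 0 for the T-cell and other raised genes Ccl5 (-1.72), Thy1 (-1.87), Ms4a4b (-1.87), Trbv1 (-2.74), Gimap4 (-1.98) and Kbtbd11 (-2.04). It was below 0 for the lowered genes Piga (-1.65), Rhd (-2.29), Apol8 (-1.69), Hemgn (-1.69), Rhag (-1.93), Slc4a1 (-2.30), Tmcc2 (-2.40), Aqp1 (-1.75), Epb42 (-1.99) and Kel (-1.85). The adjusted p was largest for Hspa1b (0.027), whose graft arrays differed most among themselves. The experiments differ in batch and in the mice, and these cannot be told apart from transplantation.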

How the results depend on the processing

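The count of genes called between graft cells and wild type (1765) stayed within 1.5 times under all 19 alternatives: 1524 to 2103 over 11 changed settings and 1315 to 1729 with each array left out in turn (741 to 928 higher, 574 to 801 lower). In all 8 fits with an array left out, 1002 of the genes kept their call, 576 higher and 426 lower. The share called higher ran from 52.8% to 58.9%, and the median over all genes from 0.01 to 0.03. With each array left out, the T-cell list gave 20 to 21 rises, monocytes 16 to 19, cytotoxic cells 13 to 17 and plasmacytoid dendritic cells 7 to 10, and falls numbered 20 to 23 for erythroid, 27 to 30 for mitosis and 8 to 10 for macrophage genes. Of 1406 counts over the lists and alternatives, 138 moved by more than 1.5 times, none of them among the counts just given.

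Replicate numbers did not pair the arrays: same-numbered arrays deviated with correlations of -0.06, -0.11, 0.03 and 0.03. With replicate number as a block, 1524 genes were called. The count for mice given wild-type marrow against wild type (120, of which 64 higher and 56 lower) depended on the fit. It was 45 (24 and 21) with the block, 59 (32 and 27) without the intensity trend and 353 (181 and 172) with array weights, and 38 genes were higher with batch 2 arrays only. The cause was not tested.

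Signals near the floor, such as Piga and C1qa in graft cells, and at the array maximum, such as S100a8, limit the differences that can show. No detection calls were used.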

Other observations

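Genes that changed also lay beside each other in 3 stretches of 12 neighbouring tested genes, which were singled out after their values were seen. On chromosome 19, from Ms4a18 to Ms4a2, 11 of 12 genes were called, 9 higher and 2 lower, in a family of membrane proteins expressed by different blood lineages. On chromosome 17, from H2-Oa to H2-Eb1 in the major histocompatibility complex, 9 of 12 were called, all higher. On chromosome 6, 8 of 12 were called, all higher, 6 of them Gimap genes. Over the whole array, 7 of 12 tested Ms4a genes were higher and 2 lower (median 0.97), and 6 of 8 Gimap genes were higher (1.13). Of 13 Klr genes, which encode lectin-like receptors, 8 were higher (0.53).

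Adult globin transcripts did not follow the other erythroid genes on all probe sets. Most of these probe sets name several genes and lay outside the fit, and they were examined after the erythroid results were seen. The probe set shared by 4 beta-globin genes was 9.90 ± 0.17 (SD, n = 4) in graft cells and 9.05 ± 0.50 in wild type, higher by 0.86 (exact permutation p = 0.02857). For Hbb-b2 alone, a probe set in the fit was 3.86 ± 1.45 against 6.00 ± 0.63, a fall of 2.14 (limma adjusted p = 0.0092, exact permutation p = 0.08571), and a dim one differed by 0.38 (exact permutation p = 0.05714). Probe sets shared by Hba-a1 and Hba-a2 differed by 0.89 (exact permutation p = 0.02857), 0.66 (0.05714) and -1.06 (0.02857). Probe sets of both the beta and the alpha globins thus disagreed in direction.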
